A study of Mus musculus with 2 samples.

Results

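The sodium pump (Na+/K+-ATPase) beta subunits and its FXYD regulators were examined in kidneys of mice with *Cnnm2* deleted by *Six2-Cre*. A set of 7 genes was read, *Atp1b1*, *Atp1b2*, *Atp1b3*, *Fxyd1*, *Fxyd2*, *Fxyd3* and *Fxyd5*, taken as every non-control probe that the array files give one of these gene names. They have 8 probes among the 31829 gene names of the array, with 2 probes for *Fxyd2* and 1 for each of the others. All 7 were well above background, by the scanner software's call, in every channel. They thus were among the 19707 genes called tested here, those clear of background in at least 1 genotype whichever dye it carried. The word means measured: with the arrays counted as 1 replicate of each genotype, values are given without a test between the genotypes.

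RNA came from whole kidneys of mice at an age of 2 months, with Cnnm2fl/fl;Six2-Cre animals called knockout below and Cnnm2+/+;Six2-Cre animals called control, so both genotypes carried the *Six2-Cre* transgene, and both were untreated. *Six2* marks the embryonic progenitors of the nephron. Cre under its control acts in the cells that descend from them, podocytes and nephron tubules, and not in collecting duct, stroma, vessels or urothelium, where the floxed gene should stay intact. The number of mice behind each RNA is not given in the sources used here. Each of 2 arrays carried both genotypes in 2 colours: on array 1 the knockout was labelled with Cy5 and the control with Cy3, and on array 2 the dyes were exchanged. The arrays were taken to carry the same 2 RNA extracts, which no source states, so each genotype has 1 replicate, and each SD below is that of the 2 arrays and covers labelling and hybridization, not the spread between mice. In whole kidney, fewer cells of a type and less RNA per cell cannot be told apart.

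The sodium pump sits in the basolateral membrane of tubule cells, where it exports sodium and imports potassium and so drives most reabsorption along the nephron. Its beta subunit is needed for folding of the pump and for its delivery to the membrane, and a small FXYD protein can bind the complex and tune its affinity for the ions. FXYD2, the gamma subunit, is abundant in kidney tubules, and a dominant mutation in its gene causes renal magnesium wasting. CNNM2 is a basolateral membrane protein of the distal convoluted tubule and thick ascending limb, and its mutation also causes magnesium loss.

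The array files place the probes on the mm9 build. *Atp1b1* was read by A_51_P151484 (chr1:166368263-166368322, minus strand), *Atp1b2* by A_55_P1968649 (chr11:69413253-69413312, minus strand) and *Atp1b3* by A_51_P520384 (chr9:96233316-96233375, minus strand). *Fxyd5* (A_51_P381260, chr7:31817824-31817883), *Fxyd1* (A_55_P2137937, chr7:31836699-31836758) and *Fxyd3* (A_66_P118124, chr7:31857207-31858634) lie on the minus strand of one cluster on chromosome 7. No mm9 annotation was used here, so exons and UTRs are not assigned. The *Fxyd3* probe, shown because *Fxyd3* differed most from the other genes, has 60 bases over a span of 1428 bases of genome, so it crosses a junction between exons and cannot be read from unspliced RNA as a whole:

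Fxyd3 probe: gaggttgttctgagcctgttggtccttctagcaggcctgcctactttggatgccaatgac

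Both *Fxyd2* probes lie on the plus strand of chromosome 9, A_55_P2069935 at chr9:45218281-45218340 and A_55_P2137941 at chr9:45218302-45218361. They share 39 bases, of which the first 30 are shown to make plain that the probes are not independent readings:

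Fxyd2 shared bases: CTGGTTTTCAATGAATCCTTGTATAAGCAA

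The files list the same 3 RefSeq transcripts for both, so the transcript variants of *Fxyd2*, whose proteins differ at one end, cannot be separated. All values below are processed signals, in which the software corrected background and dye within each array, and log2 ratios of knockout over control made from them. Signals of different probes are not comparable as levels. *Cnnm2* checked the labels: its signal was 626 (array 1) and 591 (array 2) for the knockout RNA against 4620 and 3247 for the control RNA, giving log2 ratios of -2.88 and -2.46 (mean -2.67 ± 0.30). Whether its probe lies in the deleted part is not given in the sources used here.

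The beta subunits did not keep a direction between the arrays. *Atp1b1* encodes the main beta subunit of the kidney pump. Its knockout signal was 45258 beside a control signal of 75080 on array 1, and 59169 beside 46235 on array 2. The Cy3 channel was thus the higher on each array whichever genotype it held, and the signals of the genotypes overlapped. The log2 ratios were -0.73 and 0.36, and their mean was -0.19 ± 0.77. Its dye component, the mean over both arrays of the log2 ratio of Cy5 over Cy3, was -0.54, larger than the mean difference between the genotypes. With background-subtracted signals centred on each array's median, which leave out the software's dye correction, *Atp1b1* was lower on both arrays (-0.27 and -0.20, mean -0.23).

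*Atp1b2*, a beta subunit best known from glia and also named AMOG, gave 591 in the knockout and 561 in the control on array 1, and 429 and 539 on array 2. Its log2 ratios were 0.07 and -0.33 (mean -0.13 ± 0.29), and the signals overlapped. *Atp1b3*, a beta subunit present in many tissues, gave 4118 in the knockout and 2907 in the control on array 1, and 2536 and 3168 on array 2. Its log2 ratios of 0.50 and -0.32 left a mean of 0.09 ± 0.58, with a dye component of 0.41. For these genes Cy5 was the higher channel on both arrays, the reverse of *Atp1b1*. The size of each mean was below the SD of the arrays for all 3 beta subunits. That SD includes the dye component, which cancels in the mean, so it is no measure of the mean's own spread.

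Among the FXYD genes, *Fxyd2* differed least between the genotypes. Its brighter probe, A_55_P2069935, gave 150456 in the knockout and 142758 in the control on array 1, and 97633 and 105229 on array 2. The overlapping probe A_55_P2137941 gave 141073 and 133285 on array 1, and 102008 and 105944 on array 2. The log2 ratios were 0.08 and -0.11 for the former (mean -0.02 ± 0.13) and 0.08 and -0.05 for the latter (mean 0.01 ± 0.10). Both probes were higher in the knockout on array 1 and lower on array 2, and in mean fold the knockout stood at 0.989 and 1.01 of the control. No spot of either probe was saturated. The small ratios of the single arrays were not kept under another scaling: with background-subtracted, median-centred signals the brighter probe gave 0.69 and -0.79, with a mean of -0.05.

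*Fxyd1* encodes phospholemman, a pump regulator best known from heart and skeletal muscle. Its probe gave 1725 in the knockout and 2205 in the control on array 1, and 1899 and 1862 on array 2. The log2 ratios were -0.35 and 0.03, with a mean of -0.16 ± 0.27. *Fxyd5* encodes dysadherin, an FXYD protein of epithelia that also affects cell adhesion. It gave 453 and 582 on array 1, and 429 and 412 on array 2, for log2 ratios of -0.36 and 0.06 (mean -0.15 ± 0.30). Both *Fxyd1* and *Fxyd5* were lower in the knockout on array 1 and slightly higher on array 2, with overlapping signals. A turn of sign between the arrays was common, since only 27.7% of all genes kept their direction. With background-subtracted, median-centred signals both were lower on both arrays (-0.14 and -0.17 for *Fxyd1*, -0.24 and -0.01 for *Fxyd5*).

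*Fxyd3*, an FXYD protein of epithelia such as stomach and colon, was the only one of the 7 genes with the same direction on both arrays. It was also the only one whose signals did not overlap between the genotypes. Over all genes, 27.7% kept their direction and 11.3% had signals that did not overlap, so neither trait is particular to *Fxyd3*. The *Fxyd3* values were as follows. It gave 85.7 in the knockout and 46.9 in the control on array 1, and 58.5 and 54.0 on array 2. The knockout was clearly above the control on array 1 and barely above it on array 2. The log2 ratios were 0.87 and 0.12, with a mean of 0.49 ± 0.53, a fold of 1.41 and a dye component of 0.38. Its mean too was below the SD of the arrays, which includes that dye component and does not measure the spread of the mean. Before background subtraction its spot read 186 in the knockout and 94.2 in the control over local backgrounds of 40 and 32 on array 1, and 125 and 150 over 36.5 and 47 on array 2. The ratios of *Fxyd3* changed with the processing: with the normexp correction and loess they were 0.30 and 0.02 (mean 0.16). With no background correction and loess they were 0.52 and 0.06 (mean 0.29). Of all genes tested, 309 (1.57%) had a higher mean ratio.

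**Figure D1:**
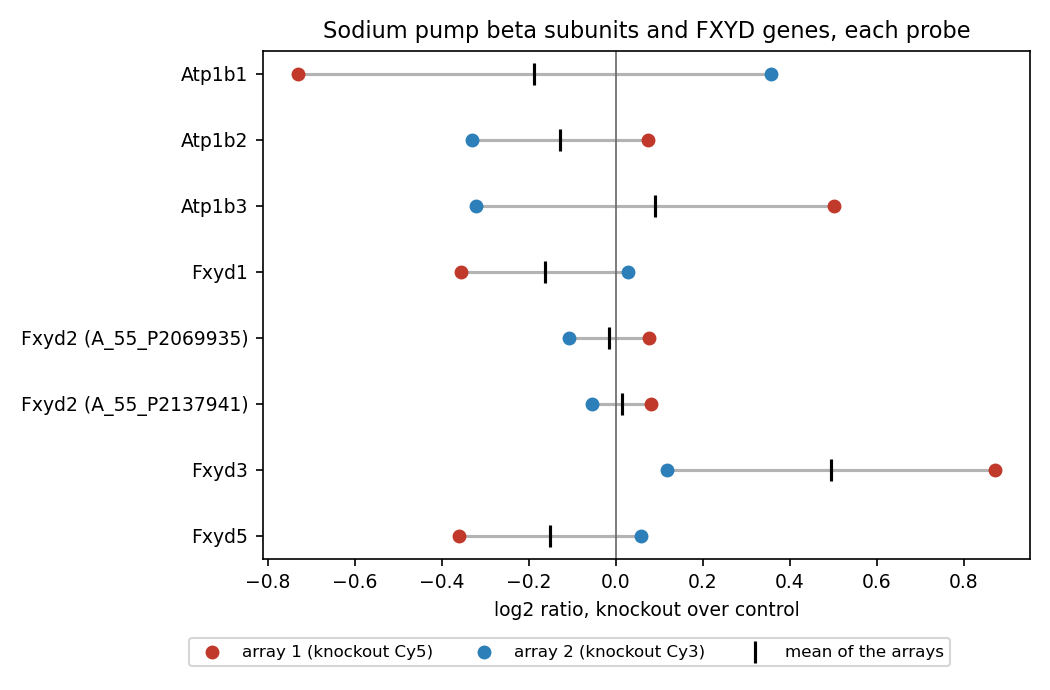
Log2 ratio of knockout over control (horizontal axis) for the 8 probes of the 7 genes, with array 1 in red, array 2 in blue and their mean as a black bar. Fxyd3 is the only gene with both points above 0, at 0.87 and 0.12, while the points of each other probe lie on both sides of 0.

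**Figure D2:**
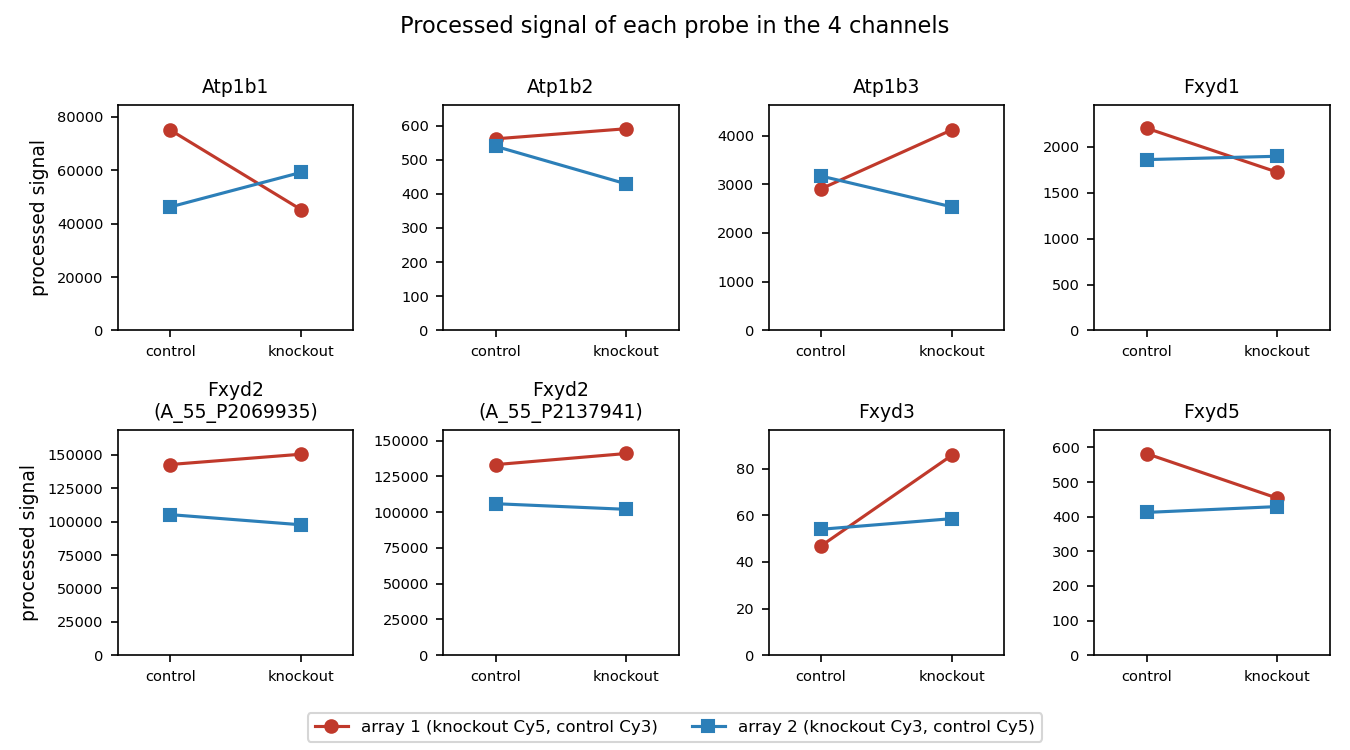
Processed signal (vertical axes from 0, arbitrary units, one scale for each panel) of the 8 probes in control and knockout, with array 1 in red circles, array 2 in blue squares and a line joining the channels of an array. The lines slope in opposite directions for every probe except that of Fxyd3, and levels of different panels are not comparable.

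Set against all genes tested, the 7 genes held no large difference. A mean change of at least 2-fold with the same direction on both arrays, the rule of size used here, was met by 0 of 7, where 0.599% of all genes met it. Their largest mean fold in either direction was the 1.41 of *Fxyd3*. The direction was the same on both arrays for 1 of 7, against 27.7% of all genes (12.1% higher on both arrays and 15.6% lower on both). The signals of the genotypes did not overlap for 1 of 7, against 11.3% of all genes. The median of the 7 mean log2 ratios was -0.13, beside -0.01 over all genes. The sign of that median was not stable, since the medians of the same genes on array 1 and array 2 alone were 0.07 and 0.03. In mean ratio 5 genes were lower and 2 higher in the knockout, and 6 of 7 lay within the central 95% of all genes, -0.44 to 0.41, with *Fxyd3* above it.

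The arrays differed in sign for many genes. Over the 19707 genes, the log2 ratios of knockout over control on array 1 and array 2 had a Pearson r of -0.51 and a Spearman rho of -0.56. Both are taken across genes, and genes are no replicates. The dye component had an SD of 0.40 over all genes, beside 0.23 for the mean ratio. The median size of the dye component was 0.21 for the 7 genes and 0.21 for all genes, while the median size of the mean ratio was 0.15 and 0.09. The dye component cancels in the mean of the arrays but not on a single array. Because no source states that both arrays carry the same RNA, it cannot be told apart from a difference between extracts.

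**Figure D3:**
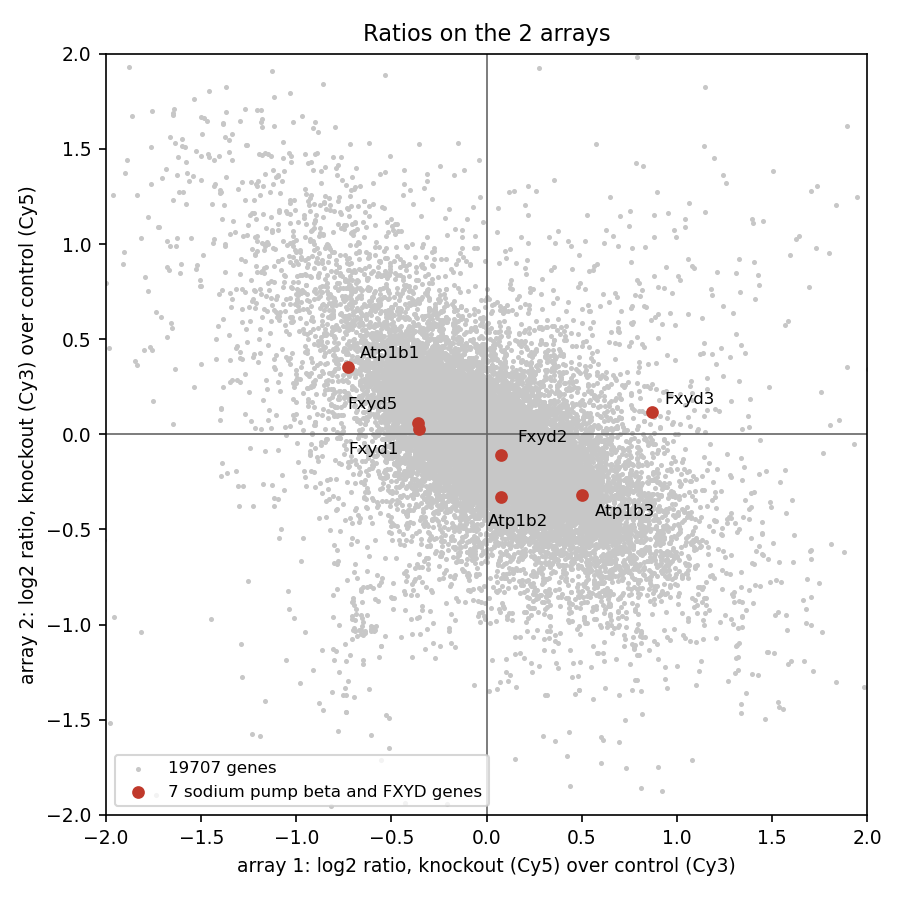
Log2 ratio of knockout over control on array 1 (horizontal axis) and array 2 (vertical axis), with all genes tested in grey, except 126 beyond the axes, and the 7 genes in red. The grey cloud runs from upper left to lower right. Fxyd3 lies above 0 on both axes and the other 6 genes lie in the parts of the plot where the arrays differ in sign.

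The other beta subunit and FXYD genes were read as a list of 4. Of these, 2 were tested, with 0 higher and 0 lower in the knockout on both arrays, and both differed in sign between the arrays. Their median log2 ratio was -0.07. *Fxyd4* encodes CHIF, the FXYD protein of the collecting duct, and gave 12330 in the knockout and 17770 in the control on array 1, and 14430 and 10401 on array 2. Its log2 ratios were -0.53 and 0.47 (mean -0.03 ± 0.71). *Fxyd6*, next to *Fxyd2* on chromosome 9, gave 1279 and 1738 on array 1, and 1271 and 1104 on array 2, for log2 ratios of -0.44 and 0.20 (mean -0.12 ± 0.46). In both the knockout was lower on array 1 and higher on array 2, and their signals overlapped between the genotypes. Only 27.7% of all genes kept their direction between the arrays. *Atp1b4* and *Fxyd7* were too close to background to be tested.

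Relatives and partners of the pump were read in the same way. Of the 3 proton-potassium pump genes, 2 were tested, with 0 higher and 1 lower on both arrays, where 15.6% of all genes were lower. Their median was -0.16, which turned to 0.05 with normexp and loess. Where both genotypes had to clear background, 1 gene was tested, with 0 lower on both arrays and a median of 0.16. *Atp4a*, the catalytic subunit of the gastric pump, gave -0.41 and 0.72, and *Atp4b*, its beta subunit, gave -0.44 and -0.53 from a probe not well above background in the knockout on both arrays. Of the 4 *Nkain* genes, whose proteins bind the sodium pump's beta subunit, 2 were tested and the brightest probe of neither kept its direction (median 0.08). The other *Nkain1* probe, dimmer but well above background, was higher in the knockout on both arrays (0.04 and 0.33, against -0.21 and 0.59 for the brightest). No gene of these lists changed by at least 2-fold.

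Markers of cell types showed what else differed between these RNAs. All 6 urothelial markers tested, 5 uroplakin genes and the keratin gene *Krt5*, were higher in the knockout on both arrays. Their mean log2 ratios ran from 0.36 to 0.87, with a median of 0.58. Over all genes, 12.1% were higher on both arrays, and the list was chosen with earlier results of these data known. A dimmer *Krt5* probe, not well above background, gave -1.83 and 2.54. The summed signal of the 6 markers was 2505 and 2165 in the knockout against 1806 and 1451 in the control. Of this, *Upk1a* alone gave 1453 and 1129 in the knockout, and 1093 and 789 in the control. None of the 6 markers was at background by its brightest probe. *Fxyd3*, with a mean of 0.49, lay within the range of their means, but not on each array. On array 1 its 0.87 lay between *Upk2* (0.30) and *Upk1b* (1.13), the lowest and highest of them. On array 2 its 0.12 was below all 6, of which *Upk2* was the lowest (0.41). The part of urothelium in the *Fxyd3* value was not tested. The same 6 were higher on both arrays under each of the other scalings tried, with a median of 0.29 under normexp and loess.

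Of the 5 markers of the distal convoluted tubule, the segment with the highest density of sodium pumps, 0 were higher and 4 lower on both arrays, and 3 of them were at least 2-fold lower. Their median was -1.01, and their summed signal was 7143 and 7406 in the knockout against 14999 and 10619 in the control. *Trpm6* and *Pvalb* stand in the study's own list of genes reduced in these kidneys, drawn from these same arrays. Their direction was thus known beforehand and is no separate finding. Of the 7 pump genes, 0 were lower on both arrays, where 15.6% of all genes were. With background-subtracted, median-centred signals *Atp1b1* (-0.27 and -0.20), *Fxyd1* (-0.14 and -0.17) and *Fxyd5* (-0.24 and -0.01) were, and with normexp and loess *Fxyd1* was (-0.24 and -0.01). *Slc12a3*, the sodium chloride cotransporter of that segment, was the marker that differed in sign between the arrays (-0.78 and 0.19). Its mean was -0.30 ± 0.68, with a dye component of -0.48. With background-subtracted, median-centred signals all 5 markers of the segment were lower on both arrays.

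The markers of other cells moved less. Over all genes, 12.1% were higher and 15.6% lower on both arrays. The medians were 0.14 for proximal tubule (5 tested, 1 higher and 0 lower on both arrays), 0.04 for thick ascending limb (4 tested, 1 and 1), -0.07 for principal cells (4 tested, 0 and 2) and -0.32 for podocytes (4 tested, 0 and 3). They were 0.01 for leukocytes (5 tested, 0 and 0) and -0.16 for smooth muscle (5 tested, 1 and 0), in which *Fxyd1* is also expressed. Fat (3 tested, 1 and 0), nerve and glia (3 tested, 0 and 1) and skeletal muscle (1 tested, 0 and 0) had medians of 0.004, -0.18 and -0.11. These counts changed with the scaling. With background-subtracted, median-centred signals the markers lower on both arrays were 0 for principal cells, 2 for podocytes and 2 for smooth muscle, and 0 of proximal tubule or thick ascending limb were higher or lower on both. With normexp and loess the median of principal cells was 0.02, and 3 podocyte markers were lower on both arrays (median -0.22). The part of any of these cells in the values of the pump genes was not tested. Markers of kidney tubules and of podocytes were well above background in every channel.

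**Figure D4:**
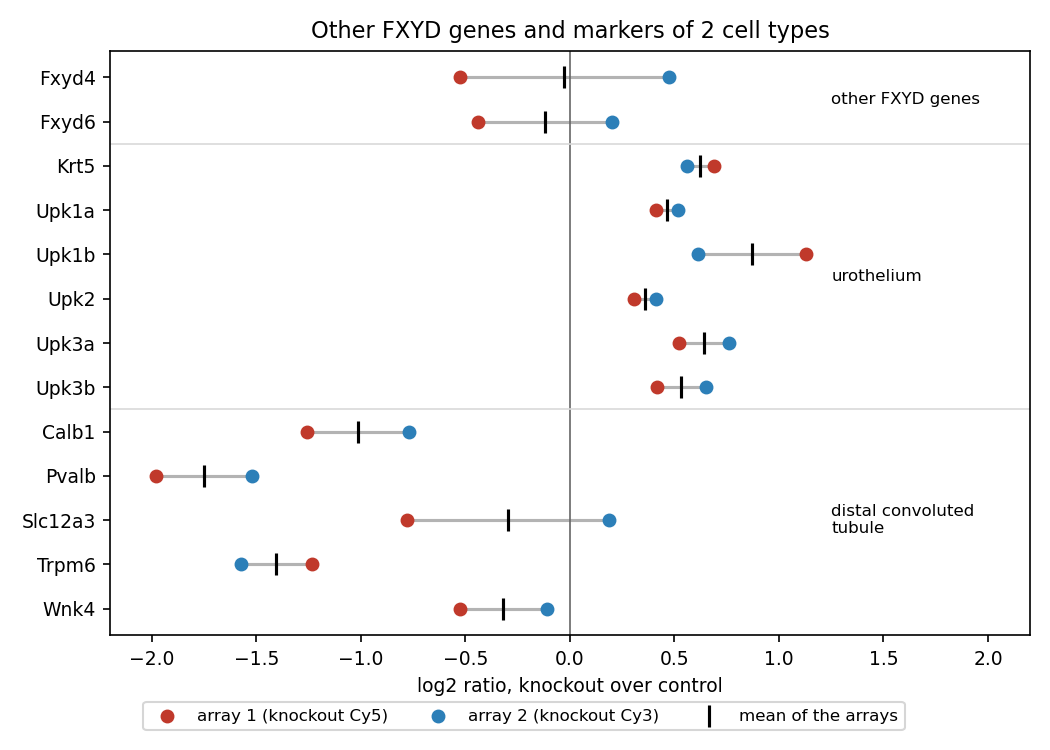
Log2 ratio of knockout over control (horizontal axis) for the other FXYD genes tested, the urothelial markers and the markers of the distal convoluted tubule, with array 1 in red, array 2 in blue and the mean as a black bar. All 6 urothelial markers lie above 0 on both arrays, 4 of the 5 distal convoluted tubule markers lie below 0 on both, and the points of Fxyd4 and Fxyd6 lie on both sides of 0.

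Across every setting that used both arrays, the mean log2 ratio ran from -0.23 to -0.19 for *Atp1b1*, from -0.13 to -0.03 for *Atp1b2* and from 0.09 to 0.11 for *Atp1b3*. It ran from -0.16 to -0.13 for *Fxyd1*, from -0.15 to -0.10 for *Fxyd5* and from -0.05 to -0.0013 for *Fxyd2*. For *Fxyd3* it ran from 0.16 to 0.53, above 0 under each. The mean of *Fxyd3* thus varied most between the settings, and no mean reached a 2-fold change. Which step of the processing moved it was not tested.

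**Figure D5:**
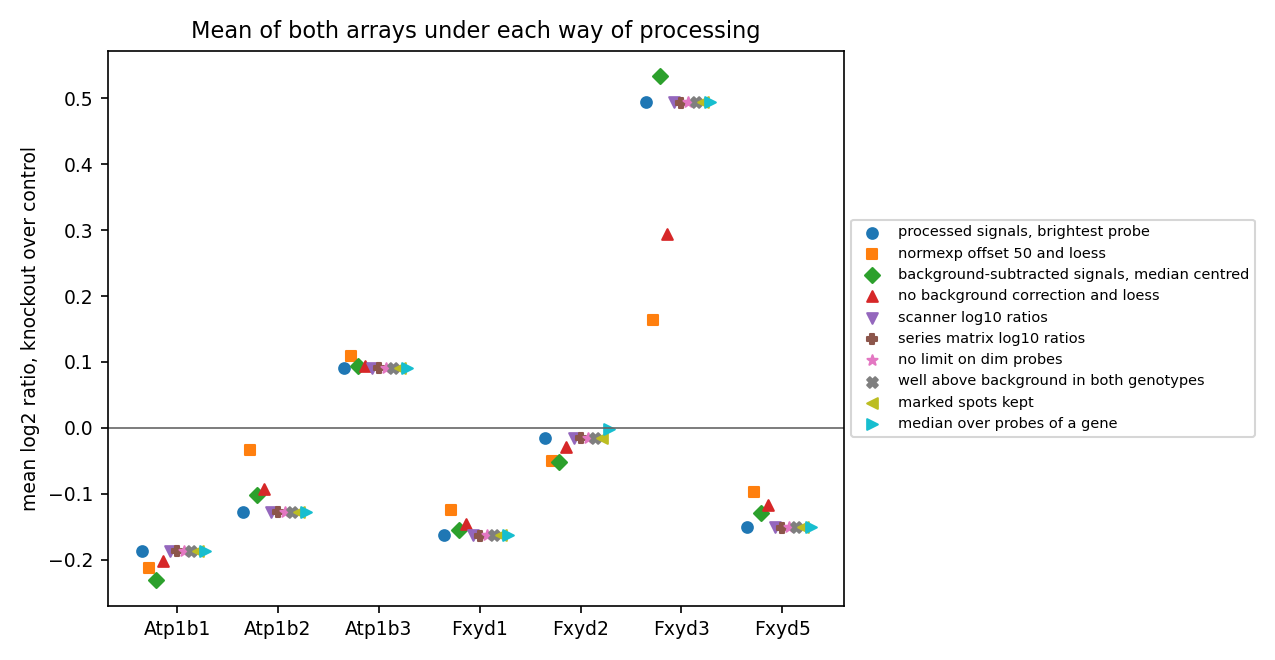
Mean log2 ratio of knockout over control (vertical axis) of the 7 genes under each setting that used both arrays, one symbol for each setting. The values of each gene lie close together except for Fxyd3, which runs from 0.16 to 0.53.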

How the data were processed

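Kidney RNA of both genotypes was hybridised to 2 two-colour Agilent arrays with the dyes exchanged. Per the file headers, the authors scanned them with Agilent Feature Extraction 10.7.3.1 (the submitters' processing notes name 10.5.1.1) and deposited each spot's raw and background-subtracted signal intensity, with a processed intensity corrected for background, spatial trend and dye. They also deposited log10 ratios, red over green in the scanner output and knockout over control in the series table. Log2 ratios of knockout over control were computed from the processed signals, turned by the dye labels. Spots marked non-uniform or as population outliers were dropped and the spots of a probe averaged. The brightest probe stood for a gene, which was tested where at least 1 genotype was well above background under both dyes. A change was counted from a mean log2 ratio of 1 in size (2-fold) with the same direction on both arrays. The number of arrays limits the precision. Alternatives used limma 3.58.1 (normexp with an offset of 50, or no background correction, each with loess), background-subtracted signals with a floor of 1 centred on the median, the deposited ratios, other filters on dim or marked spots, the median over probes, each array alone and a 1.5-fold limit. The genes named are the 7 genes, *Cnnm2* and members of the lists reported. Some genes of the lists are not reported here. The genes and lists were chosen with earlier results of these data known. Gene order came from the RefSeq annotation of GRCm38.p6, without coordinates.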

Additional observations from a re-analysis of the deposited data

How the results depend on the processing

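The count of 7 genes changed at least 2-fold was 0 under every setting, each array alone and a 1.5-fold limit included. The methods' paired t-test over the 2 arrays put 0 of the 7 genes under its threshold of 0.1, with or without the fold it also asks for. Over all genes 984 were under it and 486 under 0.05, 36 had the fold too, and 0 passed after Benjamini-Hochberg adjustment, so for the 7 genes this test says nothing of stability. All 63 mean ratios of the 7 genes under the other settings with both arrays moved by less than the SD of the arrays. That SD includes the dye component, and most of these values could hardly move. The deposited ratios and the filters on dim or marked spots left the 7 genes as they were, and the median over probes could change only *Fxyd2*. The count therefore says little of stability. The median of the 7 genes, -0.13, was -0.0508 with normexp and loess and -0.0923 with no background correction and loess, and it ran from 0.0280 to 0.0742 when 1 array was left out, a turn of sign. The number with the same direction on both arrays, 1, was 2 with normexp and loess (*Fxyd1* and *Fxyd3*) and 4 with background-subtracted, median-centred signals (*Atp1b1*, *Fxyd1*, *Fxyd3* and *Fxyd5*). The cause was not tested. Over all genes, the 118 changed at least 2-fold became 15 with normexp and loess, 24 with no background correction and loess, 64 where both genotypes had to clear background, 411 with no limit on dim probes, and 700 and 857 on array 2 and array 1 alone. Each ratio pairs both genotypes within an array, so no further replicate block applies. The spread between mice cannot be judged from these arrays.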
